A study of Mus musculus with 9 samples.

Results

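Aminoacyl-tRNA synthetases were described across B2, B2B1 and B1 cells of the mouse. The 36 enzymes were taken as a list of gene symbols, split into 20 cytosolic enzymes and 16 mitochondrial enzymes (symbols ending in 2). All 36 were rows of the gene table of 22178 symbols, and all 36 were among the 11099 genes with a mean of at least 1 TPM (the deposited unit, a level relative to transcript length and to the library total) that were tested. The study measured poly(A) RNA of B cells in 9 libraries, 3 per cell type. B2 cells came from spleen and had the strain label VH12B1-8/Vk4. B1 cells and B2B1 cells came from the peritoneal cavity and had the strain label B1-8VH12/Vk4. In B2B1 cells (also labelled B2toB1), the switch of the B cell receptor (BCR) was induced about 30 days before the cells were isolated. All groups had the same backcrossed C57BL/6 background, and the labels give neither age nor sex. Tissue, strain label and cell type cannot be told apart in the comparisons with B2, whereas B2B1 and B1 shared tissue and strain label. Both comparisons with B2 use the same 3 B2 libraries.

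Aminoacyl-tRNA synthetases join each amino acid to its transfer RNA and so supply the ribosome with charged tRNA. Mammalian cells hold a cytosolic set, part of which is bound in a multisynthetase complex on scaffold proteins, and a mitochondrial set that is also encoded in the nucleus and imported to serve the translation of the few proteins of mitochondrial DNA. Kars and Gars each encode both the cytosolic and the mitochondrial form of their enzyme, so their symbols cover both compartments. Mitochondrial glutamine tRNA is charged with glutamate by Ears2 and then amidated by the GatCAB amidotransferase. Several cytosolic synthetase genes are known targets of ATF4, the transcription factor of the amino acid and stress response, and of MYC.

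The promoters are shown for 5 members on which the results turn or whose window holds a searched motif. These were chosen after their values were seen: Aars and Aars2 as partners for alanine, Gars as a cytosolic member called higher in B2B1, Farsb as the called cytosolic member with the largest difference, and Fars2 as the mitochondrial member called higher. The windows are RefSeq's on GRCm38.p6, from 250 bases before to 50 bases after the start that RefSeq gives, written in the direction of transcription. That start can differ from the gene bounds of GENCODE, which are the coordinates given with the results: the Aars window lies wholly within the GENCODE gene, and the start used for Fars2 also lies within its gene. Capitals mark the E-box CACGTG, which MYC and related factors read, and the core TGATGNAA of the element that ATF4 reads. Both strands were searched, so the core may appear as TTNCATCA, and neither motif contains the other.
Aars, chr8:111033592-111033891, plus strand: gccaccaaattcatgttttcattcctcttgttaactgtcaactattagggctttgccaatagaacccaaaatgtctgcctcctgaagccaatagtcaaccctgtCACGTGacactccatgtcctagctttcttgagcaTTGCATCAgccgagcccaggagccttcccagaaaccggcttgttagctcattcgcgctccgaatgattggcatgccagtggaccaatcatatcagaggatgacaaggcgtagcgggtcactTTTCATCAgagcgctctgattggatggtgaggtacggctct
Gars, chr6:55037751-55038050, plus strand: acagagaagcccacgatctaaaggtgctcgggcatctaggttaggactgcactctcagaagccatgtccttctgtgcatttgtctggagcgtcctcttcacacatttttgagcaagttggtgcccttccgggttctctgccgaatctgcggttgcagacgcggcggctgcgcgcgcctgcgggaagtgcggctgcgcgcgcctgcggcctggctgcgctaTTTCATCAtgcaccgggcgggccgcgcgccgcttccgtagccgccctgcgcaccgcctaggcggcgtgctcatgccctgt
Farsb, chr1:78488848-78489147, minus strand: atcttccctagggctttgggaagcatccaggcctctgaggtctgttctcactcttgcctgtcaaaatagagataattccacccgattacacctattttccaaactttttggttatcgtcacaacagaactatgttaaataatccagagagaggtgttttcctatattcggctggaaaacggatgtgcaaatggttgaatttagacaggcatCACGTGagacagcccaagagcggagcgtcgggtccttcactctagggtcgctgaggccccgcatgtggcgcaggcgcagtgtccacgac
Aars2, chr17:45506582-45506881, plus strand: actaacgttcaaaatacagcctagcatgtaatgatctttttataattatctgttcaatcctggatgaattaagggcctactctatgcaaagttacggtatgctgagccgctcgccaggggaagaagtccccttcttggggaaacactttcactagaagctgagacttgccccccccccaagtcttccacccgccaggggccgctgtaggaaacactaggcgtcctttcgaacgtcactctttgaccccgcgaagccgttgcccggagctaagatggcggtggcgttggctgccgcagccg
Fars2, chr13:36117393-36117692, plus strand: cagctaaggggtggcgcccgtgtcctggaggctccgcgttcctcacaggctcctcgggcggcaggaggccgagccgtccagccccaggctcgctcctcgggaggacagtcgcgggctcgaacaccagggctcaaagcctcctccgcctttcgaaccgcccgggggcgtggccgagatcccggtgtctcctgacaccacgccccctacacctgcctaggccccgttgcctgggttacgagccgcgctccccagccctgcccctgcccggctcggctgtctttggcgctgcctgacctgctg
Positions are those of a motif's first base in the window, counted from 0 at RefSeq's start. The Aars window held an E-box at -146 and cores at -112 and at 9. The Gars window held a core at -30, and the Farsb window an E-box at -39. Of the 36 members, 27 had a window. Aars2 had 2 windows, of which 1 is shown, and neither motif was found for it. The core was found for 5 of 13 cytosolic members with a window (38.5%: Aars, Gars, Iars, Tars and Yars) and for 0 of 14 mitochondrial members. The share was 4.51% over all 27025 genes with a window, and 3.97% over all 32851 windows. The E-box was found for 4 of 13 cytosolic members (Aars, Farsb, Iars and Tars) and for 1 of 14 mitochondrial members (Ears2). Its share was 8.09% over all genes with a window, and 7.15% over all windows. A match is a description of letters, not of a bound site, and a window without one says only that these letters were not in it.

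The libraries had summed levels of 894515 to 943043 TPM and 10711 to 10945 genes at 1 TPM or more. Sequencing depth is unknown, because TPM keep no depth. The B cell receptor component Cd79a lay at 2393 to 3098 TPM in every library. The summed level of 12 macrophage markers was 2.05 to 3.20 TPM in B2, 24.9 to 59.3 in B1 and 72.7 to 272.5 in B2B1. Among these, Emr1 reached 52.0 TPM and Lyz2 181 TPM in B2B1 library 1, whereas Csf1r did not exceed 2.13 TPM and Cd14 did not exceed 1.45 TPM. Of 7 T cell markers, Cd3e did not exceed 0.0837 TPM and Themis 0.0734 TPM in any library. Cd3d lay at 1.93 to 8.32 TPM and Cd8a at 1.57 to 2.06 TPM over the 9 libraries. Cd2 was at 271 to 321 TPM in B2, 789 to 871 in B2B1 and 711 to 879 in B1, and Cd3g at 0 to 0.221, 0.260 to 0.512 and 6.12 to 10.7 TPM. In B1 against B2, 2 of 5 tested T cell markers were called higher (Cd2 and Cd3g) and 1 lower (Lat). In B2B1 against B2, 1 was called higher (Cd2) and 1 lower (Lat). The shares of all genes tested were 18.0% higher and 33.9% lower in B1, and 21.0% and 42.0% in B2B1. The part of macrophages and T cells in the synthetase levels was not tested. B1 library 2 stood apart from the other B1 libraries, with the proliferation marker Mki67 at 19.4 TPM beside 2.98 and 3.19. In B2B1, library 1 was the highest for Mki67, at 28.2 TPM beside 12.2 and 10.3. By Ddx3y and Xist, 1 of 3 B2 libraries, 2 of 3 B2B1 libraries and 0 of 3 B1 libraries came from male mice. These are bulk samples, so fewer cells of a type and less RNA per cell cannot be told apart. Whether a group's libraries are from different animals is not stated in the labels, and the p-values then measure only the spread between these samples.

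Among cytosolic enzymes, the level ranged from 5.80 TPM (Farsb, mean over 9 libraries) to 347.5 TPM (Vars). The valyl enzyme Vars held 23.2% to 30.5% of the summed cytosolic level in a library. Qars followed with 116.0 TPM (SD 5.97, n = 9), then Kars with 80.2 (SD 7.31) and Dars with 78.1 (SD 9.60). Kars and Dars did not differ beyond their spread, while Vars and Qars stood apart in each library. Mitochondrial enzymes ranged from 6.50 TPM (Nars2) to 59.4 TPM (Lars2). The summed cytosolic level was 1359.8 TPM in B2 (SD 59.2, n = 3), 1285 in B2B1 (SD 32.1) and 1304 in B1 (SD 95.9). The group ranges of the cytosolic sum overlapped. The summed level of all 16 mitochondrial enzymes was 395 TPM in B2 (SD 9.41, n = 3), 301 in B2B1 (SD 9.89) and 357 in B1 (SD 40.8). B1 library 3, at 402 TPM, lay within the B2 range of 384 to 402 TPM, while all B2B1 libraries lay below it. Lars2 gave 159 TPM of that B1 library, and was left out of a second sum after its values were seen. Without it, the sum was 347 TPM in B2 (SD 2.47, n = 3), 261 in B2B1 (SD 1.56) and 266 in B1 (SD 26.6). The mitochondrial sum without Lars2 was thus 75.2% of the B2 level in B2B1 and 76.7% in B1. In the sum without Lars2, every B2 library lay above every other library.

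**Figure D1:**
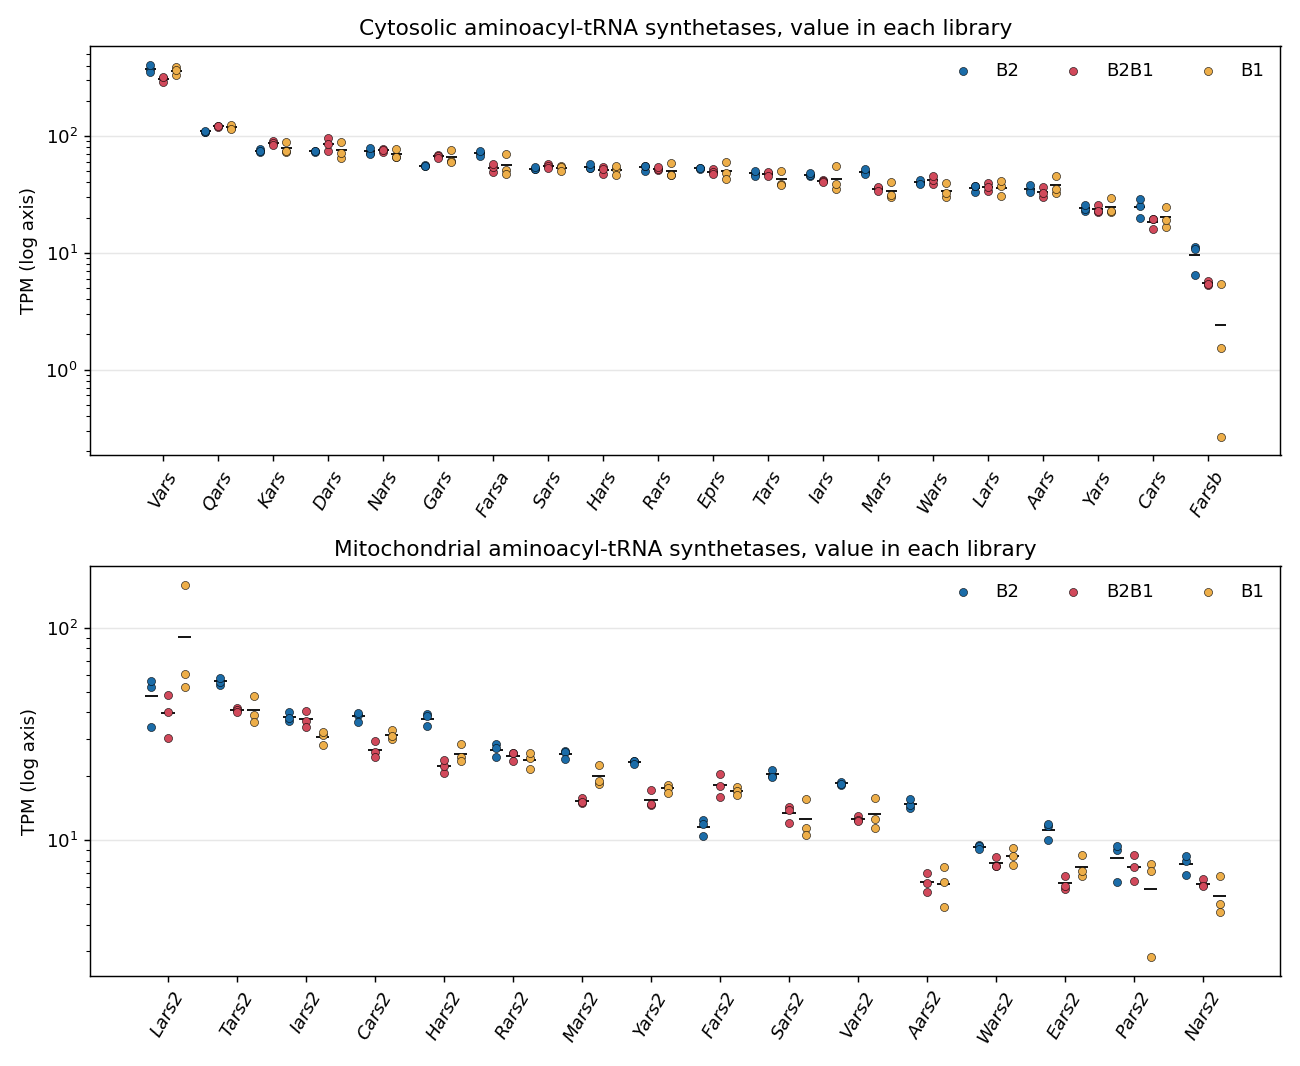
Level of each of the 36 synthetases in TPM on a log axis, with cytosolic enzymes above and mitochondrial enzymes below, 1 point per library coloured by cell type and a dash at each group's mean; genes are ordered by level. For most mitochondrial genes the 3 B2 libraries lie above the other 6. Of all 11099 genes tested, 4422 had every B1 library below every B2 library, and 5293 had every B2B1 library below. B1 library 2 is the highest B1 library for 18 of 20 cytosolic and 12 of 16 mitochondrial members.

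In B1 compared with B2, most mitochondrial synthetases were lower and few cytosolic ones were. Genes were called at a limma p under 0.05 after Benjamini-Hochberg adjustment over all genes tested. Of 16 mitochondrial enzymes, 11 were called lower and 1 higher, while 33.9% of all genes tested were called lower and 18.0% higher. Of 20 cytosolic enzymes, 3 were called lower (Farsb, Mars and Farsa) and 0 higher; at an unadjusted p under 0.05, 4 were lower and 1 higher. The median log2 fold change was -0.42 for the mitochondrial and -0.08 for the cytosolic enzymes, beside -0.14 for all genes tested. Relative to that median of all genes, the lists lay at -0.28 and 0.06. All B1 libraries lay below all B2 libraries for 11 of the 16 mitochondrial enzymes and above them for 1. For the cytosolic enzymes these counts were 2 and 2, and for all 11099 genes tested 4422 and 2426. The difference between the compartments was not tested.

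Aars2 (chr17:45506841-45520843, GRCm38), the mitochondrial alanyl enzyme, stood at 14.2, 14.6 and 15.6 TPM in the B2 libraries and at 6.39, 7.49 and 4.86 in the B1 libraries. Every B1 library was below every B2 library, a 2.37-fold lower mean. The log2 fold change was -1.14 (SE 0.14; limma adjusted p = 0.000164). The mitochondrial seryl enzyme Sars2 was at 20.1, 21.5 and 19.9 TPM in B2 and at 11.4, 15.7 and 10.6 TPM in B1. All B1 libraries were below all B2 libraries, with a log2 fold difference of -0.68 (SE 0.14; limma adjusted p = 0.00275). Hars2, for histidine, was at 39.2, 34.4 and 38.6 TPM in B2 and at 24.6, 28.4 and 23.6 TPM in B1. Its groups did not overlap either, and the log2 fold change was -0.53 (SE 0.09; limma adjusted p = 0.00118). Ears2, the glutamyl enzyme, was at 11.7, 10.1 and 11.9 TPM in B2 and at 6.77, 8.49 and 7.20 TPM in B1. The B1 values were again all lower, with a log2 fold difference of -0.53 (SE 0.11; limma adjusted p = 0.00348).

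The valyl enzyme Vars2 was at 18.3, 18.9 and 18.5 TPM in B2 and at 12.6, 15.8 and 11.4 TPM in B1 (log2 fold change -0.47, SE 0.11; limma adjusted p = 0.00594). The threonyl enzyme Tars2, the most abundant of those called lower, was at 53.8, 55.9 and 58.3 TPM in B2 and at 38.9, 47.6 and 36.2 TPM in B1 (log2 fold change -0.45, SE 0.10; limma adjusted p = 0.00362). Both kept their groups apart. The others called lower were Nars2, Yars2, Mars2, Iars2 and Cars2, for asparagine, tyrosine, methionine, isoleucine and cysteine, with log2 fold changes of -0.44 to -0.28 and adjusted p of 0.00287 to 0.0230. With every gene rescaled so that the median gene did not differ (median-of-ratios), Nars2, Mars2, Iars2 and Cars2 were no longer called (adjusted p = 0.0636 to 0.170) and Yars2 was. The calls of some also rested on single libraries. Cars2 was not called without B1 library 1, B2 library 1 or B2 library 3 (adjusted p = 0.0542 to 0.0613), Iars2 without B1 library 3 or B2 library 2 (0.0557 and 0.0594), and Nars2 without B1 library 1 or 3 or B2 library 1 or 2 (0.0699 to 0.0794).

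Fars2 (chr13:36117412-36726280, GRCm38), the mitochondrial phenylalanyl enzyme, went the other way. It was at 12.4, 11.9 and 10.5 TPM in B2 and at 17.9, 17.1 and 16.3 TPM in B1. All B1 libraries were above all B2 libraries, and the log2 fold change was 0.53 (SE 0.10; limma adjusted p = 0.00252). The 4 mitochondrial enzymes not called were Lars2, Wars2, Rars2 and Pars2, for leucine, tryptophan, arginine and proline. Their log2 fold changes were 0.76, -0.14, -0.15 and -0.50, and their 95% intervals reached from -1.17 (Pars2) to 1.64 (Lars2). The intervals of Pars2 and Lars2 (SE 0.30 and 0.39) were wider than those of Wars2 and Rars2 (SE 0.09 and 0.09).

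Lars2 (chr9:123366927-123462666, GRCm38) was at 52.8, 56.0 and 34.2 TPM in B2, at 30.2, 48.4 and 40.3 in B2B1 and at 60.3, 52.9 and 159 in B1. A single library, B1 library 3, was far above the other 8. Rn45s, a ribosomal RNA precursor chosen after its values were seen, was at 219 TPM in that library and at 26.8 to 61.8 TPM in the others. B1 library 3 also had the lowest summed level of all genes, 894515 TPM. What these have to do with the Lars2 value was not tested.

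The cytosolic phenylalanyl enzyme consists of alpha and beta subunits, encoded by Farsa and Farsb. Farsb (chr1:78417975-78488897, GRCm38) was at 11.3, 6.42 and 10.8 TPM in B2 and at 0.265, 5.39 and 1.53 TPM in B1. All B1 libraries were below all B2 libraries. The SD was 2.69 TPM in B2 and 2.67 in B1 (n = 3 each), around means of 9.52 and 2.40 TPM. Relative to the mean, the B1 libraries thus differed among themselves by more. The log2 fold change was -1.91 (SE 0.49; limma adjusted p = 0.00975), and Farsb was called under all 20 alternatives, at -2.65 to -1.35. Farsa was at 70.7, 67.0 and 74.7 TPM in B2 and at 50.7, 69.7 and 47.2 TPM in B1. B1 library 2 lay within the B2 range, and the log2 fold difference of -0.36 (SE 0.13; limma adjusted p = 0.0496) was past the threshold by little. Farsa lost its call without any single library other than B1 library 2 (adjusted p = 0.0550 to 0.164) and under median-of-ratios scaling (0.195). The ratio of the Farsa level to the Farsb level was 6.26, 10.4 and 6.89 in B2, 8.66, 10.1 and 10.6 in B2B1 and 191, 12.9 and 30.95 in B1. In transcripts of GRCm38, 8.46% of the 31-base words of Farsb also occur in another gene, mostly Sgpp2, so a part of its reads may have been split by the counting.

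**Figure D2:**
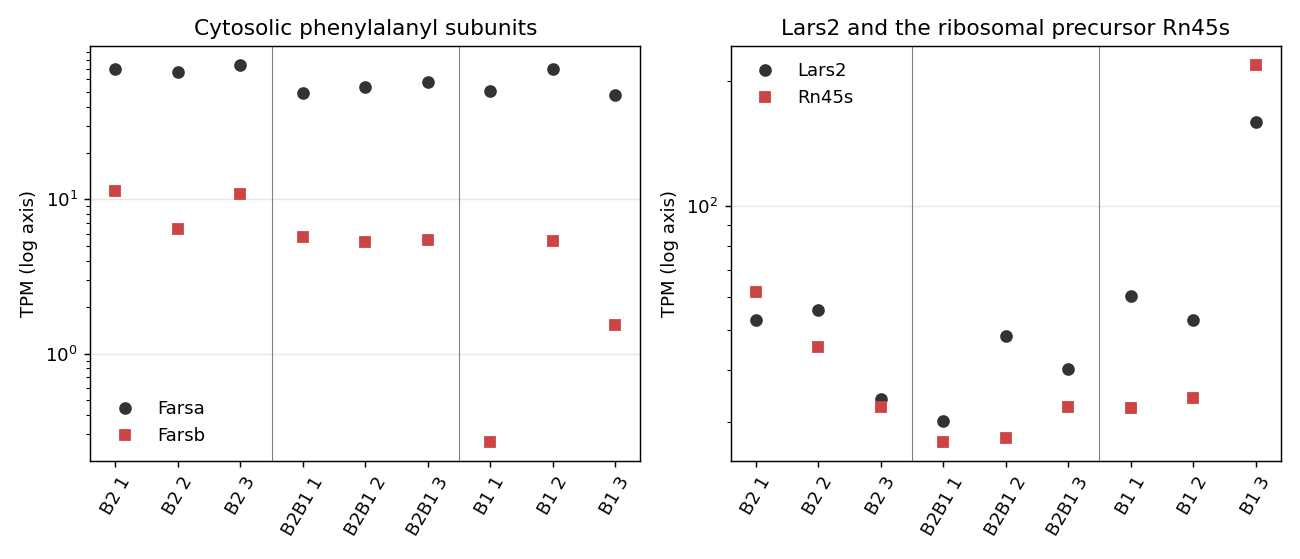
Left, levels of the Farsa and Farsb subunit genes in TPM on a log axis in each of the 9 libraries; right, levels of Lars2 and of the ribosomal RNA precursor Rn45s on the same kind of axis. Farsb falls to 0.265 and 1.53 TPM in B1 libraries 1 and 3, and B1 library 3 is the highest library for both Lars2 (159 TPM) and Rn45s (219 TPM).

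Mars (chr10:127296221-127311786, GRCm38), the cytosolic methionyl enzyme, was at 49.3, 47.5 and 51.7 TPM in B2 and at 30.0, 40.3 and 30.97 TPM in B1. Its groups did not overlap, and the log2 fold change was -0.55 (SE 0.11; limma adjusted p = 0.00235). The 17 cytosolic members not called had log2 fold changes of -0.28 (Cars) to 0.23 (Gars), and their 95% intervals reached from -0.65 (Cars) to 0.43 (Gars). Library B1 2 bore on this count. Without it, 9 of 20 cytosolic enzymes were called lower, the added ones being Cars, Eprs, Iars, Rars, Tars and Wars, at log2 fold changes of -0.42 to -0.21. Without B1 library 3, Gars was called higher (0.29, limma adjusted p = 0.0300). After median-of-ratios scaling, 4 cytosolic enzymes (Gars, Kars, Qars and Sars) were called higher in B1 and 2 lower.

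**Figure D3:**
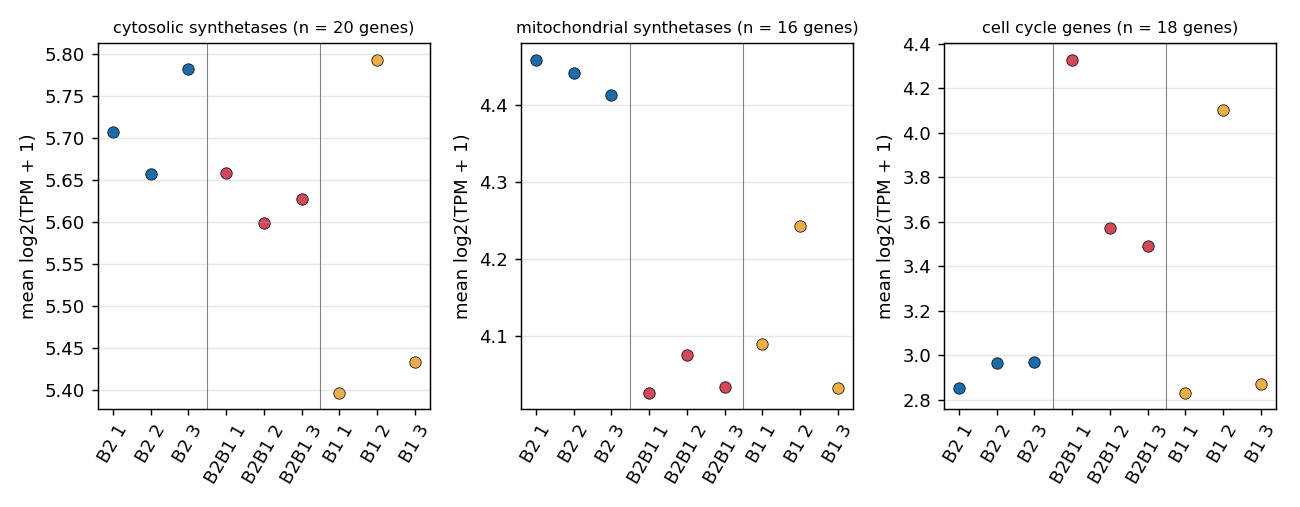
Mean log2(TPM + 1) of the 20 cytosolic synthetases, the 16 mitochondrial synthetases and 18 cell cycle genes in each of the 9 libraries; each panel has its own axis, which does not start at 0. B1 library 2 is the highest B1 library in all 3 panels, with a cell cycle mean of 4.10 beside 2.83 and 2.87.

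In B2B1 compared with B2, the mitochondrial enzymes were again mostly lower, while cytosolic enzymes were called in both directions. Of 16 mitochondrial enzymes, 10 were called lower and 1 higher, while 42.0% of all genes tested were called lower and 21.0% higher. Of 20 cytosolic enzymes, 3 were called lower (Mars, Farsa and Vars) and 3 higher (Gars, Kars and Qars). The median log2 fold change was -0.47 for the mitochondrial and -0.03 for the cytosolic enzymes, beside -0.19 for all genes. Relative to the median of all genes, the lists lay at -0.28 and 0.17. All B2B1 libraries lay below all B2 libraries for 11 mitochondrial enzymes and above them for 1. For the cytosolic enzymes these counts were 6 and 4, and for all 11099 genes tested 5293 and 2723.

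Aars2 was at 6.29, 7.04 and 5.69 TPM in the B2B1 libraries, below each of the B2 values given above (log2 fold change -1.11, SE 0.14; limma adjusted p = 0.000134). Ears2 was at 5.92, 6.07 and 6.78 TPM in B2B1 (log2 fold change -0.75, SE 0.11; limma adjusted p = 0.000338). Hars2 was at 20.7, 22.4 and 23.8 TPM (log2 fold change -0.72, SE 0.09; limma adjusted p = 0.000144). None of these B2B1 values reached the lowest B2 value of its gene. Mars2 (chr1:55237177-55248470, GRCm38), the mitochondrial methionyl enzyme, was at 26.4, 25.9 and 24.2 TPM in B2 and at 14.9, 15.8 and 15.2 TPM in B2B1. The groups were well apart, and the log2 fold change was -0.70 (SE 0.09; limma adjusted p = 0.000121). Sars2 was at 12.0, 14.4 and 13.9 TPM in B2B1 (log2 fold change -0.58, SE 0.14; limma adjusted p = 0.00525). Yars2, for tyrosine, was at 23.5, 23.6 and 22.9 TPM in B2 and at 14.7, 17.2 and 14.8 TPM in B2B1 (log2 fold change -0.56, SE 0.08; limma adjusted p = 0.000271). For Sars2 and Yars2, too, all B2B1 libraries were below all B2 libraries.

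The other mitochondrial enzymes called lower in B2B1 were Vars2 (log2 fold change -0.53), Cars2 (-0.51), Tars2 (-0.44) and Wars2 (-0.23), at limma adjusted p of 0.000534 to 0.0482. Wars2 was near the threshold and was not called without B1 library 3, any B2 library, or B2B1 library 2 or 3 (adjusted p = 0.0611 to 0.124). It was also not called after median-of-ratios scaling, at -0.04. Fars2 was higher, at 20.5, 16.1 and 18.0 TPM in B2B1, with all libraries above the B2 range (log2 fold change 0.60, SE 0.10; limma adjusted p = 0.000853). The 5 not called were Nars2, Lars2, Pars2, Rars2 and Iars2, with log2 fold changes of -0.27 to -0.04 and 95% intervals that reached from -1.13 to 0.63, both for Lars2. Without B1 library 2, which entered only the estimate of the spread, Nars2 was called lower (-0.27, limma adjusted p = 0.0411).

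**Figure D4:**
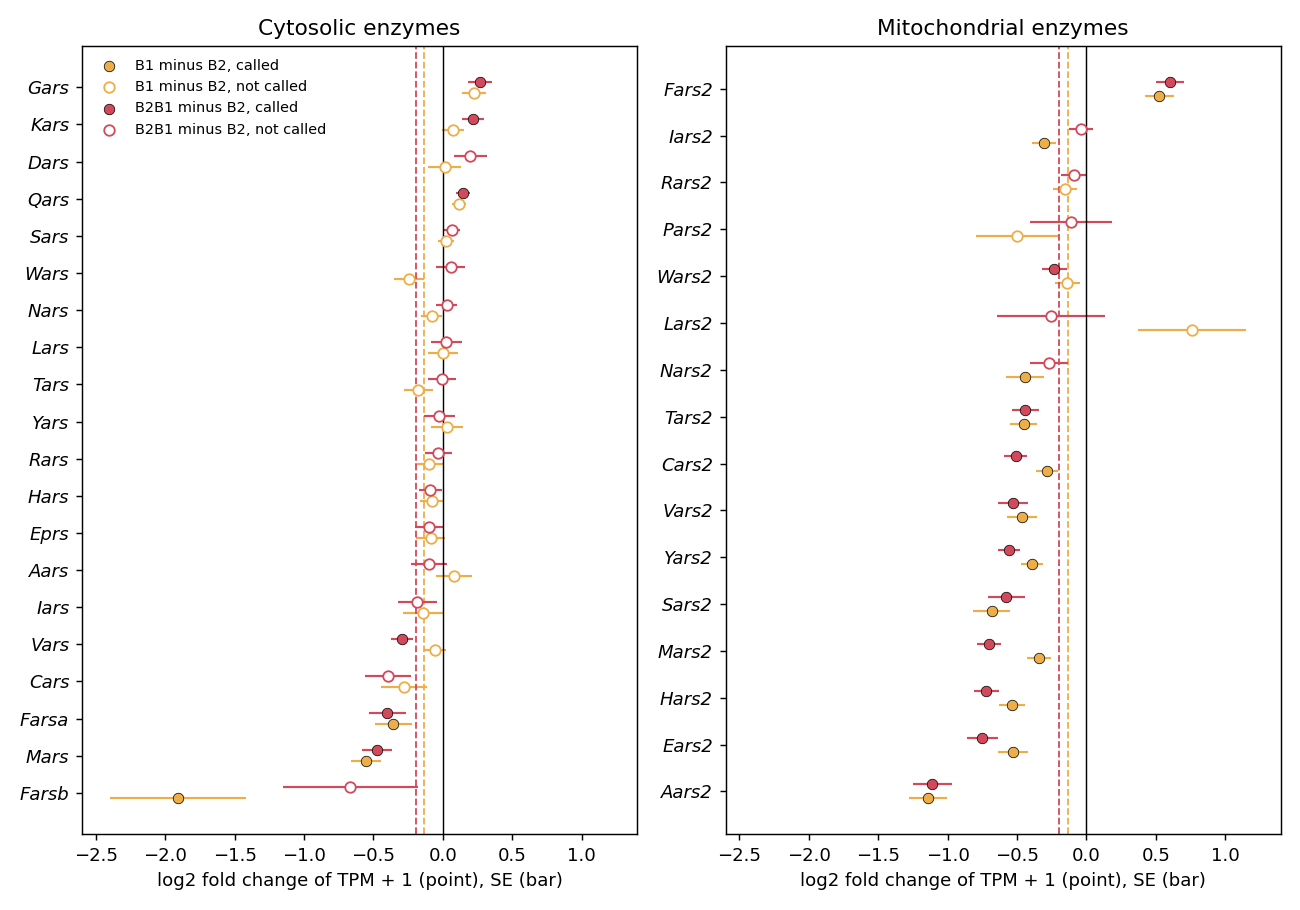
Log2 fold change of each of the 36 synthetases in B1 and in B2B1 against B2 on the log2(TPM + 1) scale, with bars of 1 SE from limma, filled points for called genes and dashed lines at the median of all genes tested in each comparison. Aars2 is the lowest mitochondrial member in both comparisons (-1.14 and -1.11), and Fars2 lies at 0.53 and 0.60; both comparisons use the same 3 B2 libraries.

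Gars, the glycyl enzyme, was at 54.9, 56.3 and 55.2 TPM in B2 and at 68.4, 67.5 and 65.3 TPM in B2B1 (log2 fold change 0.27, SE 0.09; limma adjusted p = 0.0247). Kars, the lysyl enzyme of the complex, was at 77.3, 72.8 and 73.7 TPM in B2 and at 90.6, 86.7 and 84.1 TPM in B2B1 (log2 fold change 0.22, SE 0.08; limma adjusted p = 0.0353). Qars, the glutaminyl enzyme of the complex, was at 109, 108 and 111 TPM in B2 and at 123, 119 and 121 TPM in B2B1 (log2 fold change 0.14, SE 0.05; limma adjusted p = 0.0324). In all 3 genes every B2B1 library was above every B2 library, but the differences were small. Gars was not called without any one of the B2 libraries or B2B1 library 1 or 2 (adjusted p = 0.0516 to 0.0678), and Kars without the same ones (0.0537 to 0.0993). Qars was not called without any one of the B2 or B2B1 libraries (0.0526 to 0.0902). With the sex of the library as a covariate, none of the 3 was called (0.0548, 0.0669 and 0.0562). After median-of-ratios scaling, 6 cytosolic enzymes were called higher, with Dars, Nars and Sars added.

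Mars was at 35.8, 36.8 and 33.5 TPM in B2B1, below every B2 library (log2 fold change -0.48, SE 0.11; limma adjusted p = 0.00400). Vars (chr17:35000987-35016322, GRCm38) was at 370.3, 349 and 408 TPM in B2 and at 310.5, 290.0 and 316 TPM in B2B1. Its groups did not overlap, and the log2 fold change was -0.29 (SE 0.08; limma adjusted p = 0.00977). After median-of-ratios scaling it was -0.09 and not called (0.397). Farsa was at 49.3, 53.7 and 57.4 TPM in B2B1, below the B2 range (log2 fold change -0.40, SE 0.13; limma adjusted p = 0.0259). Its call was lost without B2 library 1 or 3 or B2B1 library 1 or 2 (0.0566 to 0.0804) and after the scaling (0.202). The partner subunit Farsb was at 5.69, 5.31 and 5.42 TPM in B2B1, below the lowest B2 library, but was not called (log2 fold change -0.67, SE 0.49; limma adjusted p = 0.259). The 14 cytosolic enzymes not called had log2 fold changes of -0.67 (Farsb) to 0.20 (Dars). Without B2 library 2, Cars was called lower (-0.53, limma adjusted p = 0.0257), and without B1 library 2, Cars and Iars were (0.0333 and 0.0259).

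In B2B1 compared with B1, which shared tissue and strain label, few synthetases were called. Of 16 mitochondrial enzymes, 1 was called lower and 0 higher (3 and 1 at an unadjusted limma p under 0.05), while 12.1% of all genes tested were lower and 6.93% higher. Of 20 cytosolic enzymes, 0 were called in either direction; at an unadjusted limma p under 0.05, 2 were higher (Farsb and Wars) and 1 lower (Vars). The called gene was Mars2, at 18.4, 22.5 and 19.0 TPM in B1 and at the 14.9, 15.8 and 15.2 TPM in B2B1 given above. All B2B1 libraries were below all B1 libraries, and the log2 fold change was -0.36 (SE 0.09; limma adjusted p = 0.0221). It was not called without B2B1 library 1 or 3 (0.0617 and 0.0585) or with the sex of the library as a covariate (0.0890). Cars2 was called lower as well without B2B1 library 3 (-0.30, limma adjusted p = 0.0434).

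The width of the intervals differed between the members in this comparison. For the 20 cytosolic enzymes the log2 fold changes were -0.24 (Vars) to 1.24 (Farsb), with a median half-width of the 95% interval of 0.24 and intervals that reached from -0.50 (Cars) to 2.35 (Farsb). For the 15 mitochondrial enzymes not called they were -1.02 (Lars2) to 0.38 (Pars2), with a median half-width of 0.23 and intervals that reached from -1.90 (Lars2) to 1.05 (Pars2). Wars, the tryptophanyl enzyme and a known interferon-induced gene, was at 29.9, 39.6 and 32.4 TPM in B1 and at 38.4, 42.2 and 45.1 TPM in B2B1. The ranges overlapped through B1 library 2, and the log2 fold difference of 0.30 (SE 0.11; limma adjusted p = 0.0793) was not called. Of 9 other interferon-induced genes tested, 6 were called higher in B2B1 than in B1 and 0 lower (7 and 0 at an unadjusted limma p under 0.05). The shares of all genes tested were 6.93% higher and 12.1% lower. Those called included Psmb9 (log2 fold change 0.85), Tap1 (0.80) and Gbp6 (2.22), at limma adjusted p of 0.000323 to 0.000720. In B2B1, library 1 was the highest for Ifit3 (123 TPM beside 15.7 and 14.5) and Isg15 (51.4 beside 18.3 and 17.4). It was the lowest for Irf1 (106 beside 173 and 206). Without B1 library 2, 4 cytosolic enzymes were called higher in B2B1 than in B1 (Farsb, Kars, Tars and Wars, at log2 fold changes of 0.24 to 1.86) and Vars lower (-0.30). In the same fit, Iars2 was called higher (0.31) and Lars2 lower (-1.31) with Mars2.

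Cytosolic and mitochondrial enzymes for the same amino acid were set against each other within a library, as the difference of their log2(TPM + 1). The 17 pairs count Eprs, which charges both glutamate and proline, in a pair with Ears2 and in another with Pars2, and count Fars2 against each subunit. The cytosolic gene was the higher of the pair in 9 of 9 libraries for 12 pairs. In the pair Cars and Cars2 the mitochondrial gene was higher in all 9. In the 15 pairs without phenylalanine, the mean difference lay further toward the cytosolic gene in B2B1 than in B2 for 14 and in B1 than in B2 for 12. Among these 15, the largest shift in each of the comparisons with B2 was that of alanine, where the gap between Aars and Aars2 was 1.12 to 1.25 in B2, 2.10 to 2.31 in B2B1 and 2.18 to 2.63 in B1. Neither B2B1 nor B1 overlapped with B2 in that gap. Threonine changed its order: Tars was below Tars2 in each B2 library, with a mean gap of -0.23, and above it in each of the others, with means of 0.21 in B2B1 and 0.05 in B1. The phenylalanine pairs ran opposite, the gap between Farsa and Fars2 being 2.51 in B2, 1.51 in B2B1 and 1.63 in B1, and that between Farsb and Fars2 -0.29, -1.56 and -2.73. The gaps restate the levels above and were not tested.

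**Figure D5:**
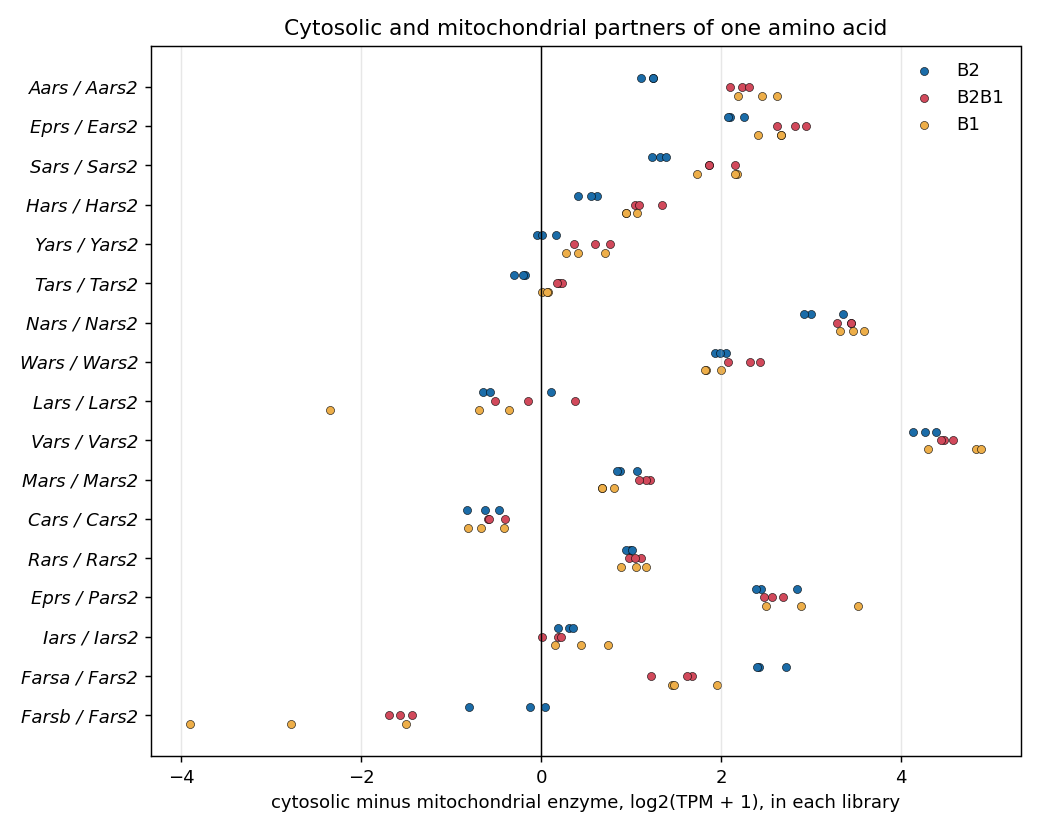
Difference in log2(TPM + 1) between the cytosolic and the mitochondrial gene for the same amino acid, one row per pair and one point per library, coloured by cell type; values right of 0 have the cytosolic gene higher. For alanine the B2 libraries lie at 1.12 to 1.25 and all others above 2.09, whereas for Farsa and Fars2 the B2 libraries lie to the right of the others.

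The 8 enzymes of the multisynthetase complex (Dars, Eprs, Iars, Kars, Lars, Mars, Qars and Rars) had a median log2 fold change of -0.04 in B1 and -0.003 in B2B1 against B2. The medians of all genes tested were -0.14 and -0.19. Of these 8, 1 was called lower in B1 (Mars), and in B2B1 2 were called higher (Kars and Qars) and 1 lower (Mars). Among all genes tested, 18.0% were called higher and 33.9% lower in B1, and 21.0% and 42.0% in B2B1. Of the 3 scaffold proteins of the complex, Aimp1 was called higher in B2B1, at 78.8, 77.0 and 71.7 TPM in B2, 121.5, 103 and 111 TPM in B2B1 and 94.1, 80.6 and 76.3 TPM in B1. The B2B1 libraries were above all others. The log2 fold change was 0.55 against B2 and 0.41 against B1 (limma adjusted p = 0.000750 and 0.0159). The other scaffold genes, Aimp2 and Eef1e1, were not called in any comparison, at -0.02 to 0.11.

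Charged tRNAs are brought to the ribosome by elongation factors. Of 6 cytosolic elongation factor genes, 5 were called higher and 1 lower in each of the comparisons with B2. Among all genes tested, 18.0% were called higher and 33.9% lower in B1, and 21.0% and 42.0% in B2B1. Eef1a1, which delivers the aminoacyl-tRNA, was at 9978 to 10459 TPM in B2, 12959 to 13508 in B2B1 and 11479 to 11764 in B1. The gene called lower was Eefsec, the factor for selenocysteine tRNA (log2 fold change -0.44 in B1 and -0.46 in B2B1). Of 16 mitochondrial translation and tRNA modification genes tested, 5 were called lower and 0 higher in B1 (5 and 0 at an unadjusted limma p under 0.05), and 6 lower and 3 higher in B2B1. Both counts of lower calls were near the share of all genes, 33.9% in B1 and 42.0% in B2B1. Those with the smallest p were the tRNA modification enzymes Trit1 (log2 fold change -0.66 in B1 and -1.03 in B2B1), Trmu (-0.59 and -0.68) and Mto1 (-0.53 and -0.73), with limma adjusted p of 4.14e-05 to 0.00203. Qrsl1, a subunit of the amidotransferase that completes glutamine tRNA after Ears2, was called higher in B2B1, against B2 (0.43, limma adjusted p = 0.00125) and against B1 (0.44, 0.00616). Its partner subunit Gatc was not called, at -0.15 and -0.18. Tufm, the mitochondrial factor that delivers aminoacyl-tRNA, was not called against B2, at -0.14 in B1 and -0.16 in B2B1.

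Of 21 genes of tRNA maturation and proofreading, 1 was called higher and 7 lower in B1, and 0 higher and 10 lower in B2B1 (0 and 11 at an unadjusted limma p under 0.05). Both shares of lower calls were near those of all genes given above. Aarsd1, a proofreading protein for mischarged alanine tRNA, was lower by a log2 fold change of -0.64 in B1 and -0.39 in B2B1, and Pop5, a subunit of the RNase that trims tRNA ends, by -0.55 and -0.56. Trnt1, which adds the CCA end needed for charging, was higher in B1 (0.27, limma adjusted p = 0.00296) and was not called in B2B1 (0.06).

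Uncharged tRNA is sensed by the kinase Gcn2, encoded by Eif2ak4, which acts through eIF2 and ATF4. Of 23 genes of the ATF4 pathway tested, synthetases left out, 6 were called higher and 3 lower in B1, and 9 higher and 6 lower in B2B1. Of all genes, 18.0% were higher and 33.9% lower in B1, and 21.0% and 42.0% in B2B1. The genes of serine and asparagine synthesis Phgdh (log2 fold change 1.67 in B1 and 2.10 in B2B1) and Asns (0.98 and 1.82) were among those higher, as were Slc7a1, a transporter of basic amino acids (1.25 and 1.11), and Atf3 (4.86 and 4.49). Other members had lower means than in B2. Ddit4 was at a mean of 215 TPM in B2, 173 in B1 and 47.0 in B2B1, and Ppp1r15a at 31.6, 16.9 and 19.1. The summed level of all 30 listed genes was 1008 TPM in B2, 1085 in B1 and 943 in B2B1. Atf4 itself was called lower, at -0.41 in B1 and -0.61 in B2B1 (limma adjusted p = 0.00504 and 0.000393). Eif2ak4 was lower in B2B1, against B2 (-0.70) and against B1 (-0.64), and was not called in B1 against B2 (-0.06). Of 13 genes of the eIF2 kinases and the stress response core, 2 were higher and 4 lower in B1, near the shares of all genes, and 2 higher and 7 lower in B2B1. Of 10 genes of the Myc network tested, 4 were called higher and 1 lower in B1, and 5 higher and 4 lower in B2B1. Myc was higher in both (1.53 and 0.79, limma adjusted p = 0.000613 and 0.0163), whereas its dimer partner Max was lower (-0.33 and -0.51). In the same list, Mxd1 had means of 8.82 TPM in B2, 14.8 in B1 and 13.7 in B2B1, and Mxd4 of 107, 161 and 125. Of 21 genes of amino acid sensing by mTORC1, 3 were higher and 7 lower in B1, and 4 higher and 10 lower in B2B1, again near the shares of all genes. The lowest was Sesn1, a relative of the leucine sensor Sesn2, at 250.2 to 367 TPM in B2, 61.0 to 78.1 in B1 and 35.8 to 40.6 in B2B1.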

How the data were processed

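Poly(A) RNA of 9 libraries (3 B2, 3 B2B1, 3 B1) was sequenced. RNeasy micro columns (Qiagen) and a TruSeq RNA kit (Illumina) were used, per the labels' protocols. The submitters' processing notes name CASAVA 1.8.2, kallisto and the build mm10. For kallisto, neither its version nor its transcript set is given in the sources used here. The values deposited for 22178 gene symbols are TPM, as the name of the table says and as kallisto gives them, and how transcripts were summed to genes is not stated. TPM of a gene depend on all others in the library and keep no depth, so counting error has no interval here.

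Values were tested as log2(TPM + 1), a scale that understates the change of low genes, for the 11099 genes whose mean TPM reached 1. All 3 contrasts came from limma 3.58.1 (trend) in R 4.3.3, fitted in one model over all 9 libraries with no covariate. P-values are two-sided and Benjamini-Hochberg adjusted over all genes of a comparison, with calls under 0.05. The script was tested on simulated data. An exact permutation test of 3 against 3 libraries cannot go below 0.1 and was not used. The members and gene lists were chosen with earlier results of these data known. Up to 6 called members per compartment and direction got values in every library. Of other lists, up to 4 called members with the smallest p were named, and others to complete small counts. Promoters were taken from RefSeq, gene coordinates from GENCODE on GRCm38. Protein features were not analysed here. A second deposited table, of a gene signature, was not used. No pair of libraries was identical (0 of 36). Same-numbered libraries did not deviate together (correlations -0.0584 to 0.123). In all, 20 alternatives were run, of which 9 left out one library each. Figures used Python 3.11.15 and matplotlib 3.10.9.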

Additional observations from a re-analysis of the deposited data

How the results depend on the processing

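Of the members called in B1 against B2, Farsb, Mars, Fars2 and 7 mitochondrial enzymes called lower (Aars2, Ears2, Hars2, Sars2, Tars2, Vars2 and Yars2) were called in the same direction under all 20 alternatives; in B2B1 against B2 these were Mars, Fars2 and 9 called lower (Aars2, Cars2, Ears2, Hars2, Mars2, Sars2, Tars2, Vars2 and Yars2). The TPM of a library are relative, and median-of-ratios scaling moved the median of all genes from -0.14 to -0.001 in B1 against B2 and from -0.19 to -0.003 in B2B1 against B2, with 2768 genes higher and 2547 lower in place of 2003 and 3762, and 3380 and 3171 in place of 2332 and 4663. In B1 against B2, cytosolic enzymes called higher numbered 4 under median-of-ratios scaling and 4 under quantile normalization. Cytosolic enzymes called lower numbered 5 with library weights and 8 without both B1 library 2 and B2B1 library 1. Mitochondrial enzymes called higher numbered 2 with library weights (Lars2 added), and those called lower 7 after median-of-ratios scaling. In B2B1 against B2, cytosolic enzymes called higher numbered 6 after median-of-ratios scaling, 5 after quantile normalization, 1 with a replicate block and 0 with sex as a covariate. Those called lower numbered 1 after median-of-ratios scaling, 6 with only the 2 groups compared in the fit and 5 with both libraries left out. In B2B1 against B1, cytosolic enzymes called higher numbered 1 after median-of-ratios scaling, 1 after quantile normalization, 2 with library weights and 3 with both libraries left out; those called lower numbered 1 under quantile normalization, the replicate block and both libraries left out. Mitochondrial enzymes called higher there numbered 1 under median-of-ratios scaling, quantile normalization, the replicate block and both libraries left out. Those called lower numbered 0 with only the 2 groups in the fit, with sex as a covariate and with both libraries left out. Leaving out one library at a time gave the following ranges, for cytosolic higher and lower and mitochondrial higher and lower in turn: 0 to 1, 2 to 9, 1 to 1 and 9 to 11 in B1 against B2; 0 to 3, 2 to 5, 1 to 1 and 9 to 11 in B2B1 against B2; and 0 to 4, 0 to 1, 0 to 1 and 0 to 2 in B2B1 against B1. The replicate numbers do not pair the libraries by any label, and 1 of 9 libraries correlated best with its own number. The causes of these changes were not tested. Depth could not be read from TPM, and transcripts shared with other genes (31-base words: 23.6% of Iars2, 14.7% of Iars, 14.4% of Aars, 9.83% of Fars2) limit those members.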

Other observations

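The groups of other genes listed beside the synthetases showed further differences between B2B1 and B2. Of 13 plasma cell and secretory genes tested, 10 were called higher in B2B1 and 0 lower by limma (10 and 0 at an unadjusted p under 0.05), with a median log2 fold change of 0.80 beside -0.19 for all genes; in B1, 6 were called higher and 0 lower (8 and 0 unadjusted). Of 17 cell cycle genes, 8 were called higher and 1 lower in B2B1 against B2, and 1 higher and 2 lower in B1 against B2. Of all genes tested, 21.0% were higher and 42.0% lower in B2B1, and 18.0% and 33.9% in B1. All 6 macrophage markers tested were called higher in B2B1 against B2, and 2 of the 6 in B1. Their part in the synthetase values was not tested.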
